A study of Mus musculus with 14 samples.

Results

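The 10 genes described here make, break down or sense prostaglandins. They are Pla2g4a, which encodes cytosolic phospholipase A2 alpha, the cyclooxygenase genes Ptgs1 and Ptgs2, the prostaglandin E synthase genes Ptges and Ptges2, the prostacyclin synthase gene Ptgis, Hpgd, which encodes 15-hydroxyprostaglandin dehydrogenase, and the prostaglandin E2 receptor genes Ptger1, Ptger2 and Ptger4. Members were taken by gene symbol from a list chosen with earlier results of these data known. All 10 were among the 43472 genes listed in both tables of the series. The question was how their RNA levels differed between wounded fibroblasts with and without a skin micrograft extract, at 5 h in replicates and over 24 h in a single series of libraries.

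RNA was sequenced from primary fibroblasts of the tail tip of C57BL/6 mice. All cultures were scratch wounded in growth medium with fetal bovine serum. The untreated groups received nothing further, and the AMG-treated groups received autologous micrograft, which was a filtered and cell-depleted extract of mechanically disrupted mouse skin diluted in growth medium. The 14 libraries comprised a replicate 1 of both groups for each of 1, 5, 12 and 24 h, and replicates 2, 3 and 4 of both groups for 5 h alone. No transgene, deletion or genotype other than the strain was given, and the age of the mice was not given in the sources used here. The design text of the series calls the replicates biological, but nothing says whether a number stood for an animal, a culture or a batch of extract, so p-values measure only the spread between these libraries.

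Prostaglandins are short-lived lipid signals. A phospholipase frees arachidonic acid from membranes, a cyclooxygenase turns it into prostaglandin H2, and a terminal synthase converts that into prostaglandin E2, prostacyclin or another prostanoid. Prostaglandin E2 acts on 4 receptors, EP1 to EP4, and is inactivated inside cells by 15-hydroxyprostaglandin dehydrogenase after uptake by a transporter. Ptgs1 is known as the constitutive cyclooxygenase, and Ptgs2 and Ptges are known as genes that fibroblasts induce together in response to injury and cytokines.

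Between 12545537 and 34696529 reads per library fell on genes. The ribosomal protein genes took 7.00% of the reads in Untreated 5h replicate 1 and 5.10% in AMG-treated 1h replicate 1, against 2.27% to 3.47% in the other 12 libraries, so that ratios of replicate 1 at 1 h and 5 h rest on a library that stood apart. Their part in these ratios was not tested, and a length correction is given beside each member that it moved beyond the counting interval. All 9 fibroblast markers of a fixed list were detected, with Col1a1, a collagen chain gene, at 130390 to 278572 normalised counts in replicates 2 to 4. Of 6 mast cell markers, Cpa3, Kit and Tpsb2 had 0 reads in all 14 libraries, while Cma1, Mcpt4 and Ms4a2 reached 117, 13 and 7 reads. Of 7 keratinocyte markers, Krt1 had 0 reads, Krt5 and Krt14 had at most 3 and Epcam at most 11, while Dsp, Krt10 and Trp63 reached 912, 90 and 77.

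In replicates 2 to 4 at 5 h, the genes of the inducible route to prostaglandin E2 were upregulated with AMG. Ptgs2 rose 3.05-fold and Ptges rose 7.03-fold by the ratio of group means, and the genes of the other steps did not pass the same test. Of the 10 members, 9 reached a mean normalised count of 10 and were tested in limma among 13096 genes, without pairing by replicate number. Of these 9, 2 were higher and 0 were lower at an adjusted p under 0.05, where 0.97% of all genes tested were higher and 0.267% were lower. At an unadjusted p under 0.05, 4 of the 9 differed, all of them higher, where 23.1% of all genes differed and 11.9% were higher. The same pair, Ptgs2 and Ptges, was called by edgeR, where 0.817% of all genes were higher and 0.214% lower, and by DESeq2, where 6.57% were higher and 4.42% lower. The treated values lay above the untreated values without overlap for 3 members, Ptgs2, Ptges and Ptges2, and below for 0, where 15.1% and 13.6% of all genes did so. The median log2 fold change over the 9 was 0.39 with 7 positive, beside a median of -0.02 over all genes tested. The members were chosen with results of these data known, and the study's own text names Ptgs2 among its upregulated genes, so these counts are a description and not independent evidence.

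The replicate numbers paired the libraries, and far more genes were called once these numbers entered the fit as a block. In that fit 5 members were higher and 1 was lower, where 17.9% of all genes were higher and 19.3% were lower. The 5 were Ptgs1, Ptgs2, Ptges, Ptges2 and Ptger4, and the one lower was Hpgd. With the block in edgeR, Ptgis was a further member that was higher, where 18.4% of all genes were higher and 18.6% were lower. When replicate 1 was added and edgeR was run on 4 replicates with the block, the members called were Ptgs2 and Ptges, which were higher, and Hpgd, which was lower, where 2.49% of all genes were higher and 1.29% were lower.

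**Figure D1:**
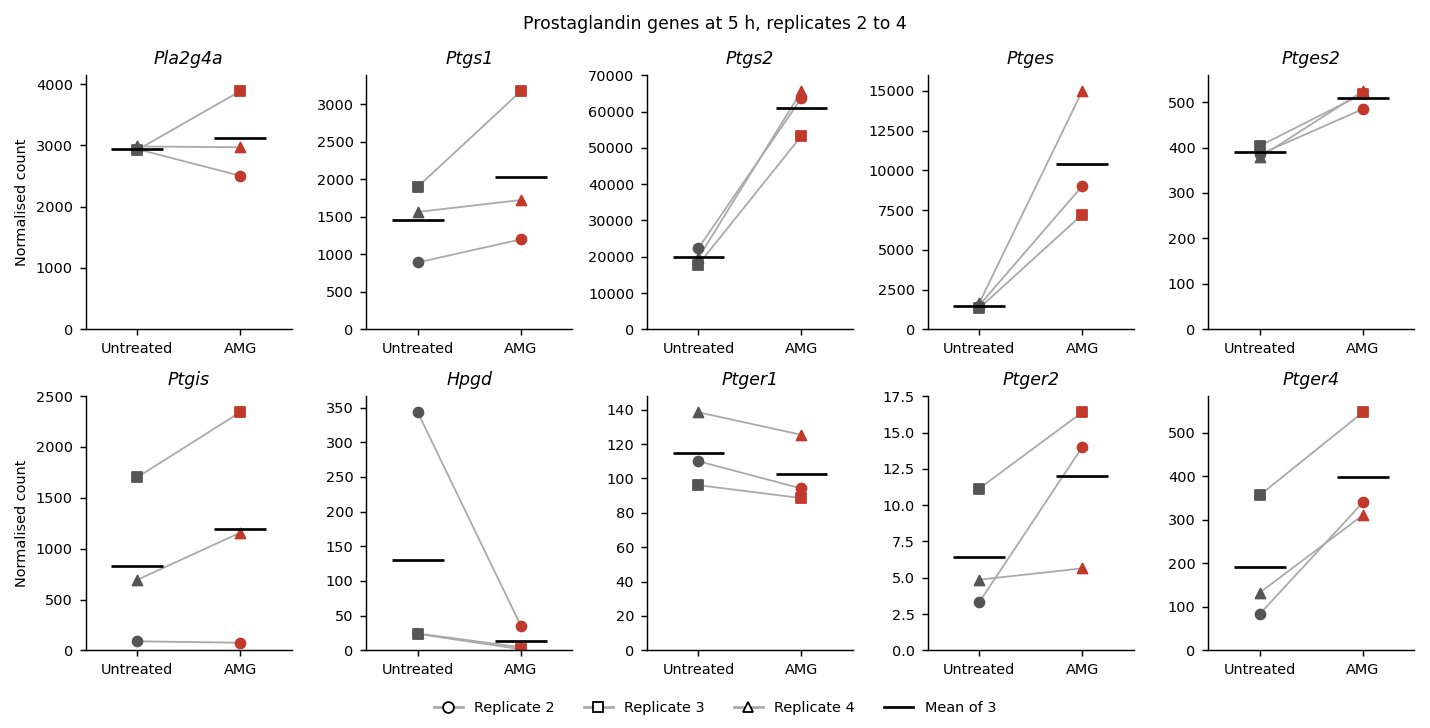
Normalised counts of the 10 members at 5 h in untreated and AMG-treated libraries of replicates 2, 3 and 4, with a linear axis from 0 for each gene. Grey lines join libraries of the same replicate number and black bars are means of 3. Ptgs2, Ptges and Ptges2 were the members whose treated values all lay above the untreated ones.

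Pla2g4a encodes the phospholipase that frees arachidonic acid (chromosome 1, 149829618 to 149961290, minus strand, mm10). Its normalised counts were 2938, 2923 and 2982 in untreated replicates 2, 3 and 4 and 2504, 3883 and 2968 in the treated ones. The untreated libraries were close to each other, and the treated libraries lay on both sides of them. The groups differed by 0.06 on the log2 scale (SE 0.17, limma adjusted p = 0.867). In the time series of replicate 1, the treated level was 1.10-fold the untreated level at 1 h, 0.948-fold at 5 h, 1.47-fold at 12 h and 1.95-fold at 24 h. The 95% counting interval of this ratio was 1.03 to 1.17 at 1 h, 0.891 to 1.01 at 5 h, 1.40 to 1.54 at 12 h and 1.86 to 2.04 at 24 h. The treated level reached 4168 at 24 h while the untreated level was 2143, so the later times differed beyond counting error in these single libraries. With the length correction the log2 ratio at 1 h was 0.43 instead of 0.14, at 5 h it was -0.36 instead of -0.08, and at 24 h it was 1.05 instead of 0.96.

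Ptgs2 encodes the inducible cyclooxygenase, often called COX-2 (chromosome 1, 150100031 to 150108227, plus strand). It had 22356, 17849 and 19675 normalised counts in untreated replicates 2, 3 and 4 and 63780, 53342 and 65665 in the treated ones. Every treated library was higher than every untreated library, and the treated level was 2.85-fold, 2.99-fold and 3.34-fold the untreated level within replicates 2, 3 and 4. The mean rose from 19960.1 ± 2267 to 60929 ± 6638 (SD, n = 3 per group). This was a log2 difference of 1.61 (SE 0.17, limma adjusted p = 0.0190). With the replicate block the limma adjusted p was 1.36e-05. In the fit with no block, the call was lost when some single libraries were left out. The adjusted p was 0.124 without AMG-treated 5h replicate 2 and 0.107 without AMG-treated 5h replicate 4. It was 0.0928 without Untreated 5h replicate 2 and 0.0916 without Untreated 5h replicate 4. With these libraries left out in turn, 1, 6, 10 and 9 of all genes tested were called. The log2 fold change stayed between 1.53 and 1.72 over all alternatives.

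In replicate 1 the untreated level of Ptgs2 was highest at the earliest time, with 16262, 6801, 5980 and 4903 normalised counts at 1, 5, 12 and 24 h. The treated libraries had 70488, 27298, 29548 and 18582. Both series were lower at 24 h than at 1 h, and the treated one was higher at each time. The ratio of treated to untreated was 4.33-fold at 1 h (95% counting interval 4.26 to 4.41), 4.01-fold at 5 h (3.89 to 4.15), 4.94-fold at 12 h (4.82 to 5.06) and 3.79-fold at 24 h (3.69 to 3.90). With the length correction the log2 ratio was 2.27 instead of 2.12 at 1 h, 1.90 instead of 2.00 at 5 h and 1.97 instead of 1.92 at 24 h. The ratio thus ranged from 3.79-fold to 4.94-fold, and the counting intervals of neighbouring times did not overlap. The level itself was lower at each later time than at 1 h. Since there was 1 library per group and time, these ratios have no replicate check, and the intervals cover counting error only, because the reads carry no molecular identifiers.

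Ptgs1, the constitutive cyclooxygenase gene (chromosome 2, 36230426 to 36252272, plus strand), differed from Ptgs2 in its course. Its normalised counts were 891, 1899 and 1565 in untreated replicates 2, 3 and 4 and 1198.5, 3175 and 1724 in the treated ones. The groups overlapped, and each treated library was higher than the untreated library of its own number. Their log2 fold change was 0.44 (SE 0.41, limma adjusted p = 0.550, and 0.0192 under the replicate block). The untreated levels of replicate 1 were 1746, 1182, 1226 and 1071 at 1, 5, 12 and 24 h. The treated levels were 1393, 2671, 4550 and 5790.2. The ratio was therefore below 1 at 1 h, 0.798-fold (95% counting interval 0.734 to 0.867), and 2.26-fold (2.08 to 2.45), 3.71-fold (3.51 to 3.93) and 5.41-fold (5.10 to 5.73) at the later times. A gene of unknown type, Gm43621, overlaps exons of Ptgs1 on the opposite strand, and the strand setting of the counting was not stated.

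Within a library, Ptgs2 had more reads than Ptgs1 in all 8 libraries at 5 h. The log2 ratio of Ptgs2 to Ptgs1 reads was 3.51 ± 0.89 in untreated and 4.60 ± 1.09 in treated libraries (SD, n = 4 per group). The difference of 1.09 gave p = 0.171 in an exact two-sided permutation test, or 0.214 after adjustment over 5 pairs of members, and the smallest p that 4 against 4 libraries allow is 0.0286. The ratio was higher in the treated library of each of the 4 replicates, by 0.83 in replicate 1 and by a mean of 1.17 in replicates 2 to 4.

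**Figure D2:**
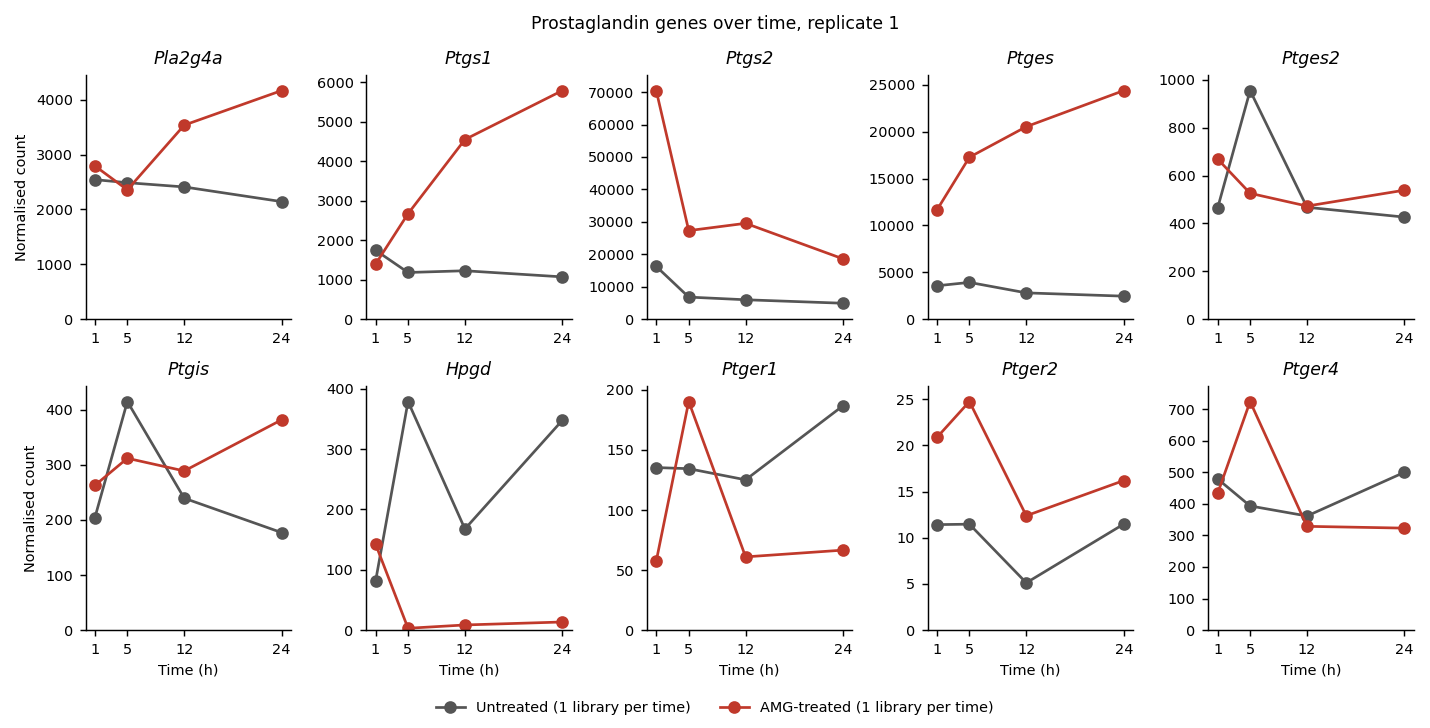
Normalised counts of the 10 members in replicate 1 at 1, 5, 12 and 24 h, with 1 untreated and 1 AMG-treated library at each time and a linear axis from 0 for each gene. Treated Ptgs2 went from 70488 at 1 h to 18582 at 24 h, while treated Ptges went from 11645 to 24385 and treated Ptgs1 from 1393 to 5790.2.

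Ptges encodes the inducible microsomal prostaglandin E synthase (chromosome 2, 30889471 to 30929863, minus strand). Its normalised counts were 1495, 1317 and 1626 in untreated replicates 2, 3 and 4 and 9007, 7219 and 14979 in the treated ones. The lowest treated library was well above the highest untreated library. Within replicates 2, 3 and 4 the treated level was 6.02-fold, 5.48-fold and 9.21-fold the untreated one. The mean rose from 1479.5 ± 155 to 10402 ± 4064 (SD, n = 3 per group), a log2 difference of 2.75 (SE 0.27, limma adjusted p = 0.0190). With the replicate block the limma adjusted p was 2.39e-06. In the fit with no block, it was 0.124 without AMG-treated 5h replicate 2, 0.0928 without Untreated 5h replicate 2 and 0.0867 without Untreated 5h replicate 4. The log2 fold change ranged from 2.45 to 2.98 over all alternatives.

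Over time, the untreated level of Ptges in replicate 1 was 3560, 3921, 2803 and 2453 at 1, 5, 12 and 24 h. The treated level was 11645, 17272, 20532 and 24385 at the same times, higher at each time than at the one before. The ratio was 3.27-fold at 1 h (95% counting interval 3.15 to 3.40), 4.41-fold at 5 h (4.22 to 4.60), 7.33-fold at 12 h (7.08 to 7.58) and 9.94-fold at 24 h (9.58 to 10.3). The intervals of neighbouring times did not overlap. The highest ratio of Ptges was thus at 24 h and that of Ptgs2 at 12 h, in single libraries.

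Ptges2 encodes a second prostaglandin E synthase, known as a broadly expressed enzyme (chromosome 2, 32395896 to 32405772, plus strand). It had 385, 403.8 and 378.6 normalised counts in untreated replicates 2, 3 and 4 and 484.7, 518.1 and 524.1 in the treated ones. The groups did not overlap, and the treated level was 1.26-fold, 1.28-fold and 1.38-fold the untreated level within the 3 replicates. The log2 fold change was 0.39 (SE 0.13, limma adjusted p = 0.150, and 0.0287 under the replicate block). Replicate 1 differed from the others at the same time. There the ratio was 0.551-fold at 5 h (95% counting interval 0.492 to 0.616), beside 1.44-fold at 1 h (1.26 to 1.65), 1.01-fold at 12 h (0.897 to 1.14) and 1.26-fold at 24 h (1.12 to 1.42). The length correction took the log2 ratio from 0.53 to 0.74 at 1 h and from -0.86 to -1.02 at 5 h. The untreated library at 5 h, with 955.6 normalised counts, stood apart from 464.1, 467.6 and 426.5 in the untreated libraries at 1, 12 and 24 h. It is the library with the highest share of ribosomal protein reads, and the part of that in the ratio was not tested.

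The log2 ratio of Ptges to Ptges2 reads within a library was 2.03, 1.95, 1.70 and 2.10 in untreated replicates 1 to 4 and 5.03, 4.21, 3.80 and 4.83 in the treated ones. The groups did not overlap. The difference of 2.52 gave p = 0.0286 in the exact two-sided permutation test, which is the smallest p the design allows, and 0.0714 after adjustment over the 5 pairs, so it did not pass the threshold.

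Ptgis encodes prostacyclin synthase (chromosome 2, 167191805 to 167240604, minus strand). Its normalised counts were 89.1, 1700.1 and 692.3 in untreated replicates 2, 3 and 4 and 75.1, 2341 and 1157 in the treated ones. Replicate 2 was low and replicate 3 was high in both groups, so that the level followed the replicate number far more than the treatment. The highest library was 18.9-fold the lowest in the untreated group and 30.8-fold in the treated group, on values with 1 added. Of the 13096 genes tested, 47 (0.359%) were at least as widely spread in both groups, and the median gene had ratios of 1.34 and 1.49. Its log2 fold change was 0.32 (SE 1.49, limma adjusted p = 0.920), and with the block its SE was 0.17 and its adjusted p 0.176. Within replicates 2, 3 and 4 the treated level was 0.842-fold, 1.38-fold and 1.67-fold the untreated one. With the block, edgeR called Ptgis higher (adjusted p = 0.0415) in these replicates and gave an adjusted p of 0.746 on all 4. The ratio in replicate 1 was 1.29-fold at 1 h (95% counting interval 1.04 to 1.59), 0.752-fold at 5 h (0.641 to 0.883), 1.21-fold at 12 h (1.03 to 1.42) and 2.16-fold at 24 h (1.83 to 2.54). The log2 ratio at 5 h was -0.16 instead of -0.41 with the length correction. The transcript 1110018N20Rik overlaps exons of Ptgis on the opposite strand.

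The log2 ratio of Ptges to Ptgis reads, which sets the prostaglandin E2 synthase beside the prostacyclin synthase, was 2.04 ± 1.99 in untreated and 4.50 ± 2.33 in treated libraries (SD, n = 4 per group). It was higher in the treated library of all 4 replicates. The groups overlapped, and the difference of 2.46 gave p = 0.143 in the exact two-sided permutation test and 0.214 after adjustment over the 5 pairs.

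Hpgd encodes the dehydrogenase that takes the first step of prostaglandin breakdown (chromosome 8, 56294585 to 56321043, plus strand). Its normalised counts were 343.2, 23.7 and 24.3 in untreated replicates 2, 3 and 4 and 35.6, 1.64 and 4.52 in the treated ones. These correspond to 312, 17 and 45 reads in the untreated libraries and to 28, 2 and 4 reads in the treated libraries. Replicate 2 was about as far above the others in the treated group as in the untreated group, with a highest-to-lowest ratio of 13.9 against 14.0 on values with 1 added, and its treated library was above the other untreated ones. Only 106 of the genes tested (0.809%) were at least as widely spread in both groups. Within each number the untreated library was higher, 9.63-fold in replicate 2 (95% counting interval 6.54 to 14.7), 14.4-fold in replicate 3 (3.43 to 129) and 5.39-fold in replicate 4 (1.96 to 20.6).

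The log2 fold change of Hpgd was -2.89 (SE 1.33, limma adjusted p = 0.248). The block brought the limma adjusted p to 0.000822, and edgeR on 4 replicates with the block gave 0.0282, so the fall passed where libraries of the same number were compared and not otherwise. The fitted value depended on the small number added before the logarithm, with -3.15 for 0.1 and -1.91 for 10. It was -1.62 without Untreated 5h replicate 2 and -3.97 without AMG-treated 5h replicate 2.

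In replicate 1 the untreated levels of Hpgd were 80.9, 378.6, 167.6 and 347.7 normalised counts at 1, 5, 12 and 24 h. The treated levels were 142.6, 3.09, 8.58 and 13.5, from 82, 4, 9 and 15 reads. The treated library was the higher one at 1 h and by far the lower one at the other times. At 1 h the treated level was 1.76-fold the untreated one (95% counting interval 1.29 to 2.40), but the log2 ratio of 0.81 became 0.25 with the length correction. The untreated level was 122-fold the treated level at 5 h (47.1 to 453), 19.5-fold at 12 h (10.1 to 43.3) and 25.8-fold at 24 h (15.4 to 46.4). At 5 h the direction was therefore the same in all 4 replicates.

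The log2 ratio of Ptgs2 to Hpgd reads, a cyclooxygenase over a breakdown enzyme, was 4.16, 6.02, 9.48 and 9.63 in untreated replicates 1 to 4 and 12.8, 10.8, 14.4 and 13.5 in the treated ones. The lowest treated library was above the highest untreated library. The difference of 5.54 gave p = 0.0286 in the exact two-sided permutation test and 0.0714 after adjustment over the 5 pairs. It was 8.62 within replicate 1 and 4.51 within replicates 2 to 4.

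**Figure D3:**
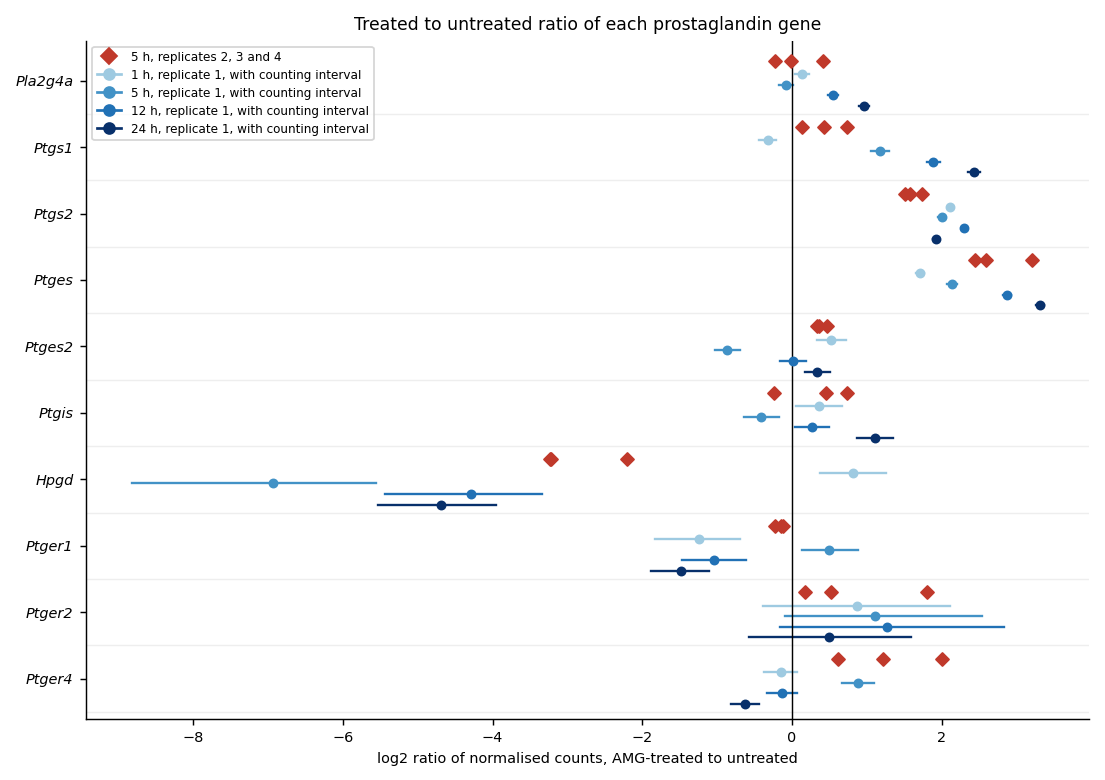
Log2 ratio of AMG-treated to untreated normalised counts for each member. Red diamonds are the 3 pairs of replicates 2 to 4 at 5 h with 1 added to each value, and blue points are replicate 1 at each time with nothing added and with 95% counting intervals. Ptgs2 and Ptges lay to the right of 0 at every point, and Hpgd lay to the left at every point except 1 h.

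The receptor genes were expressed at low levels. Ptger4 encodes EP4, a receptor that raises cyclic AMP (chromosome 15, 5206661 to 5244187, minus strand). It had 83.6, 356.5 and 132.5 normalised counts in untreated replicates 2, 3 and 4 and 339.7, 546.8 and 310.6 in the treated ones. Untreated replicate 3 was above 2 of the treated libraries, so the groups overlapped, while each treated library was higher than the untreated library of its number, by 4.06-fold, 1.53-fold and 2.34-fold. The log2 fold change was 1.28 (SE 0.52, limma adjusted p = 0.208, and 0.00343 under the replicate block). With edgeR on 4 replicates and the block the adjusted p was 0.0583. The ratio in replicate 1 was 1.84-fold at 5 h (95% counting interval 1.60 to 2.13) but 0.904-fold at 1 h (0.775 to 1.05), 0.909-fold at 12 h (0.790 to 1.05) and 0.646-fold at 24 h (0.567 to 0.736). With the length correction its log2 ratio at 5 h was 0.58 instead of 0.88, and at 1 h it turned from -0.15 to 0.16. Exons of Ttc33 overlap Ptger4 on the opposite strand.

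Ptger2 encodes EP2, which also raises cyclic AMP (chromosome 14, 44988195 to 45003820, plus strand). It was near the detection floor of 3 reads, which corresponded to 1.62 to 4.18 normalised counts in replicates 2 to 4. The normalised counts were 3.30, 11.1 and 4.87 in untreated replicates 2, 3 and 4 and 14.0, 16.4 and 5.65 in the treated ones, from 3 to 20 reads. The groups overlapped, and the mean was under 10, so that Ptger2 was not tested with the others. In a fit of all genes above 0 its log2 fold change was 0.83 (limma adjusted p = 0.615). All 4 ratios of replicate 1 were above 1, from 1.41-fold at 24 h to 2.42-fold at 12 h, and every 95% counting interval of replicate 1 held 1, so a difference was not detectable there at this depth. Within replicates 2, 3 and 4 the treated level was also the higher one, by 4.24-fold (1.12 to 23.7), 1.47-fold (0.621 to 3.86) and 1.16-fold (0.305 to 3.86). The log2 ratio of Ptger4 to Ptger2 reads at 5 h was 4.66 ± 0.29 in untreated and 4.96 ± 0.43 in treated libraries (SD, n = 4 per group), and the difference of 0.30 gave p = 0.343 before and after adjustment in the exact two-sided permutation test.

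Ptger1 encodes EP1, a receptor known for calcium signalling (chromosome 8, 83666678 to 83672753, plus strand). Its normalised counts were 110.0, 96.1 and 138.5 in untreated replicates 2, 3 and 4 and 94.1, 88.5 and 125.4 in the treated ones. The groups overlapped, with a log2 fold change of -0.16 (SE 0.25, limma adjusted p = 0.736). The ratio in replicate 1 was 0.424-fold at 1 h (95% counting interval 0.282 to 0.621), 1.42-fold at 5 h (1.10 to 1.84), 0.487-fold at 12 h (0.360 to 0.653) and 0.356-fold at 24 h (0.271 to 0.464).

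Set against the whole table, replicate 1 had 2 members over 2-fold higher and 1 lower at 1 h, where 11.3% and 10.7% of 13498 genes were. At 5 h there were 4 higher (Ptgs1, Ptgs2, Ptges and Ptger2) and 1 lower (Hpgd), where 13.3% and 12.6% were. At 12 h the same 4 were higher and Hpgd and Ptger1 were lower, where 5.93% and 6.9% were. At 24 h 4 were higher (Ptgs1, Ptgs2, Ptges and Ptgis) and 2 were lower (Hpgd and Ptger1), where 6.05% and 8.05% were. Ptgs2 and Ptges were over 2-fold higher at all 4 times.

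Levels were also compared between genes per kilobase of exon in replicates 2 to 4. In untreated cells Ptgs2 was the highest with 4358 ± 495 normalised counts per kb (SD, n = 3), ahead of Pla2g4a with 461 ± 4.81, and these neighbours did not overlap. Ptges with 376 ± 39.5, Ptgs1 with 374 ± 132, Ptgis with 322 ± 317, Hpgd with 77.5 ± 109 and Ptges2 with 76.9 ± 2.59 followed, each overlapping the next. Pla2g4a lay apart from Ptges just below it, but the highest Ptgs1 and Ptgis libraries, at 489 and 662, were above every Pla2g4a value. The receptors came last, with 28.7 ± 21.9 for Ptger4 and 21.0 ± 3.96 for Ptger1, which overlapped, and 1.24 ± 0.80 for Ptger2, which did not. Ptger4 lay apart from Ptges2 just above it, but Hpgd was so widely spread that its lowest library, at 14.1, was below most of the Ptger4 and Ptger1 values. In treated cells Ptgs2 had 13303 ± 1449 and Ptges was next with 2646 ± 1034, apart from Ptgs1 with 523 ± 264, Pla2g4a with 488 ± 110, Ptgis with 464 ± 441 and Ptges2 with 101 ± 4.19, which overlapped in turn. Ptger4 with 60.0 ± 19.4 stood apart from its neighbours, but the lowest treated Ptgis library, at 29.2, was below every treated Ptger4 value. Ptger1 with 18.8 ± 3.64, Hpgd with 8.28 ± 11.2 and Ptger2 with 2.31 ± 1.09 overlapped in turn at the lower end.

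**Figure D4:**
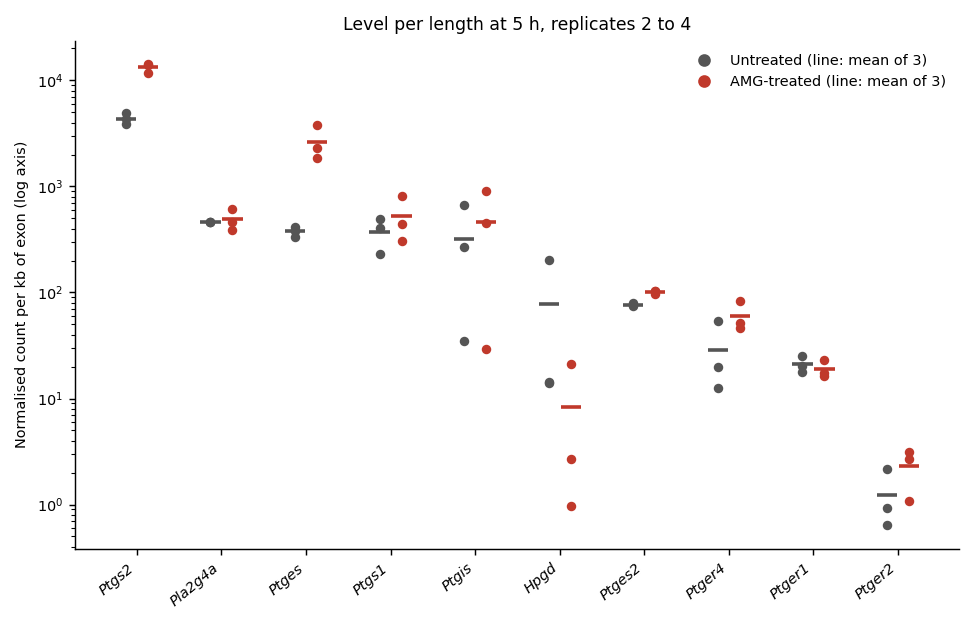
Normalised counts per kilobase of exon of the 10 members at 5 h on a log axis, ordered by their untreated mean, with points for replicates 2, 3 and 4 and lines for the mean of 3. Ptges went from the group around 376 to the second highest level at 2646, and Hpgd from 77.5 to 8.28.

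Ptgs2 lies in a sparse neighbourhood in which nearby noncoding transcripts were upregulated too. Of 16 annotated genes within 500 kb of its start, 8 were tested. Ptgs2os, a noncoding gene that begins 67 bases before Ptgs2 and runs away from it, had 91.3, 90.5 and 85.5 normalised counts in untreated replicates 2, 3 and 4 and 264.6, 186.9 and 264.3 in the treated ones. Ptgs2os2, a long noncoding gene whose span begins 50.8 kb beyond the end of Ptgs2, had 201.3, 222.8 and 206.6 against 894.4, 657.5 and 659.6. Neither gene had overlapping groups. Their log2 fold changes were 1.39 (SE 0.21, limma adjusted p = 0.0414) and 1.79 (SE 0.17, adjusted p = 0.0190), so both rose. With the replicate block the limma adjusted p was 0.000873 for Ptgs2os and 5.29e-05 for Ptgs2os2. In the fit with no block, these calls too were lost when some single libraries were left out. The adjusted p of Ptgs2os was 0.0770 to 0.199 without any one library other than AMG-treated 5h replicate 3, and that of Ptgs2os2 was 0.0867 to 0.121 without replicate 2 or 4 of either group.

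Over time in replicate 1, the ratio of treated to untreated was 1.84-fold, 1.94-fold, 2.89-fold and 2.41-fold for Ptgs2os and 3.14-fold, 2.41-fold, 3.82-fold and 6.07-fold for Ptgs2os2 at 1, 5, 12 and 24 h. Every counting interval lay above 1. For Ptgs2os2 the length correction took the log2 ratio from 1.64 to 1.11 at 1 h and from 1.26 to 1.71 at 5 h. The ratio was then higher at 5 h than at 1 h. Between Ptgs2 and Ptgs2os2, the predicted gene Gm9687 differed by 2.65 on the log2 scale (SE 0.48, limma adjusted p = 0.0558, 0.00197 under the block), from at most 36 reads per library in replicates 2 to 4. It was chosen for mention after its values were seen. The span of Pla2g4a stops 139 kb before Ptgs2, and its log2 fold change of 0.06 is given above. On the far side, Tpr had -0.10 (limma adjusted p = 0.661, 0.384 under the block), Prg4 had 0.46 (SE 0.95, adjusted p = 0.804, 0.00735 under the block) and Hmcn1 had -0.66 (SE 0.65, adjusted p = 0.570, 0.0254 under the block).

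**Figure D5:**
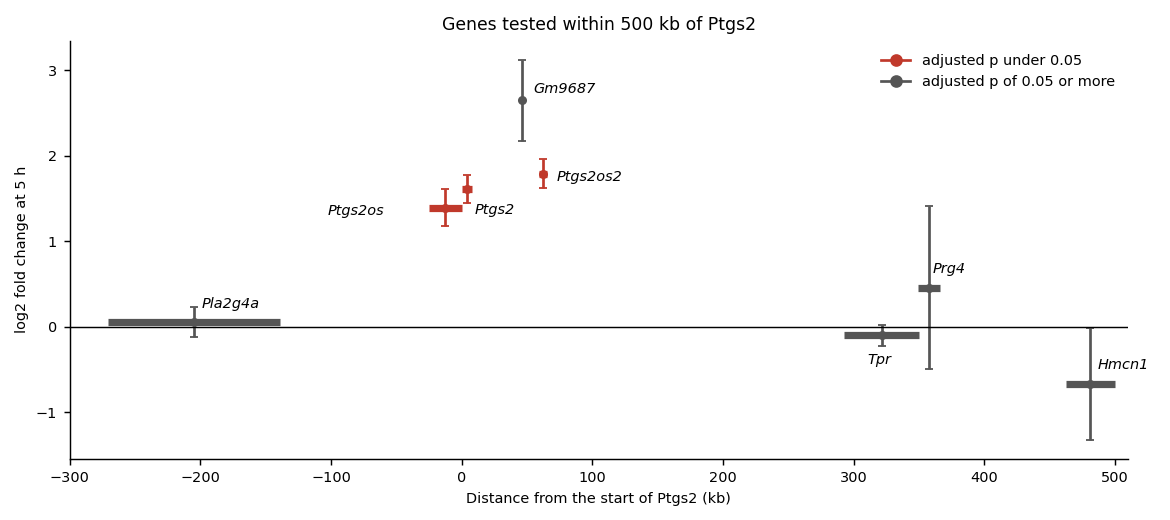
Log2 fold change at 5 h with its standard error for the 8 genes tested within 500 kb of Ptgs2, against distance from the start of Ptgs2 in kb. Thick bars are the annotated spans, and red marks an adjusted p under 0.05. The 3 red genes, Ptgs2os, Ptgs2 and Ptgs2os2, lay at 1.39, 1.61 and 1.79, while Pla2g4a and Tpr lay near 0.

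The promoters of the 3 members with the largest differences at 5 h are shown here. At that time Ptgs2 and Ptges were higher with AMG and Hpgd was lower. The promoter windows run from 250 bases before the RefSeq start to 30 after it on the gene's own strand, from GRCm38.p6. Capitals mark the motifs found. The positions are chr1:150099781-150100060 for Ptgs2 on the plus strand, chr2:30903268-30903547 for Ptges on the minus strand and chr8:56294302-56294581 for Hpgd on the plus strand.
Ptgs2: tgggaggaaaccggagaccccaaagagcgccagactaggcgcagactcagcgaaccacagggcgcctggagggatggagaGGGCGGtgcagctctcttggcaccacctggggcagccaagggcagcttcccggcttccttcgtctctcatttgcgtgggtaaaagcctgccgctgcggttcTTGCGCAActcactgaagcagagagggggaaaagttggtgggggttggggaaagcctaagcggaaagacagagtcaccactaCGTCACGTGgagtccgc
Ptges: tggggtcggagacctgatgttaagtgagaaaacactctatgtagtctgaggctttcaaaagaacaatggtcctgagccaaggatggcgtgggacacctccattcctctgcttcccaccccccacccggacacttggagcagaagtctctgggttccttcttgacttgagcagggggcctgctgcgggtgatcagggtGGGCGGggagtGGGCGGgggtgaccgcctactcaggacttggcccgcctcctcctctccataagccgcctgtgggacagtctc
Hpgd: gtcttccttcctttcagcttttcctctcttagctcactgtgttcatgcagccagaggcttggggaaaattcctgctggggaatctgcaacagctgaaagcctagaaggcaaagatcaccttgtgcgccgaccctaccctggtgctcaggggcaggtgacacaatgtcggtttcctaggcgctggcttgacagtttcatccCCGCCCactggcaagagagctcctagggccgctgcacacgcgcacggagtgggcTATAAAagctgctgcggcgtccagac

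The motifs searched on both strands were the E-box CACGTG, the core TGACG of a cyclic AMP response element, the C/EBP motif TTGCNNAA, the AP-1 motif TGANTCA, the GC box GGGCGG, the TATA box TATAAA and the NF-kB motif. Ptgs2 held a GC box, a C/EBP motif and, just after the RefSeq start, such a core that overlaps an E-box. Whether this start is the one used in these cells was not tested. Of 32851 promoters of RefSeq, each read to 50 bases after the start, 10.8% held the C/EBP motif, 20.8% the TGACG core and 7.15% the E-box. Because Ptgs2os starts nearby on the other strand, its own window holds the same GC box, C/EBP motif, TGACG core and E-box. Ptges held 2 GC boxes, 1 shortly after the other, and Hpgd held a GC box and a TATA box that begins 5 bases after the RefSeq start. A GC box was found in 35.7% of promoters and a TATA box in 13.6%. The AP-1 motif, in 7.81% of promoters, and the NF-kB motif, in 8.46%, were not among these letters in the 3 windows. The start of Ptges in RefSeq lies inside the span that the GENCODE annotation gives to the gene. A match is a run of letters and was not tested for binding or effect.

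The genes whose levels followed Ptgs2 most closely were sought over the 8 libraries of replicate 1 among the 10886 genes whose mean reached 50 in both tables. They were Ell2, which encodes a transcription elongation factor, Ereg, an epidermal growth factor receptor ligand, Tnfaip2, Slfn2 and Relb, an NF-kB subunit, with Pearson r of 0.983, 0.975, 0.973, 0.973 and 0.970. Over the 6 libraries of replicates 2 to 4, their r was 0.949, 0.993, 0.757, 0.493 and 0.946. For Ptges the closest were Gsap, Cd40, a receptor of the tumour necrosis factor family, the collagenase genes Mmp13 and Mmp1b, and the aldo-keto reductase gene Akr1b8, with r of 0.991, 0.984, 0.984, 0.979 and 0.979. Over replicates 2 to 4 their r was 0.965, 0.974, 0.970, 0.987 and 0.885. These are descriptions over libraries that share treatment and time, and neither list held the other gene.

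The rest of the pathway was read from lists fixed for this purpose, and in replicates 2 to 4 no gene of these pathway lists passed in limma. The counts below stand beside 17.9% of all genes higher and 19.3% lower with the block, 23.1% at an unadjusted p under 0.05, and 6.57% higher and 4.42% lower in DESeq2. Of 11 genes of arachidonate release and handling, 7 were tested, with 0 called in limma, edgeR or DESeq2 and 0 at an unadjusted p under 0.05. Their median log2 fold change was 0.15. With the block, Acsl4, an acyl-CoA synthetase that prefers arachidonate, was higher (0.59, adjusted p = 0.00462 in limma with the block, 0.270 without), and Pla2g15, a lysosomal phospholipase, was lower (-0.33, adjusted p = 0.0233 with the block, 0.262 without). Mgll, which encodes monoacylglycerol lipase, was the third one called with the block and was lower (-0.78, adjusted p = 0.000773 with the block, 0.538 without).

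Of 7 other prostanoid synthases, 4 were tested, with 0 called in limma or edgeR, 1 at an unadjusted p under 0.05 and a median of 0.22. That gene was Ptges3, the cytosolic prostaglandin E synthase and cochaperone, which had 1919 ± 105 untreated and 2683 ± 310 treated normalised counts (SD, n = 3 per group) without overlap. Its log2 fold change was 0.48 (limma adjusted p = 0.109, 0.00386 under the block), and DESeq2 called it. With edgeR on 4 replicates and the block it was 0.17 (adjusted p = 0.774), and in replicate 1 at 5 h the log2 ratio was -0.81. Akr1b3, an aldose reductase with prostaglandin F synthase activity, had 0.14 (adjusted p = 0.648). Ptgds, a prostaglandin D synthase gene, had 0 reads in all libraries.

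All 5 genes of prostaglandin transport and inactivation were tested, with 0 called in limma or edgeR, 1 at an unadjusted p under 0.05 and a median of 0.58. With the block, 4 of the 5 were higher, namely Slco2a1, Zadh2, Abcc4 and the prostaglandin reductase gene Ptgr1. None of these 4 passed in edgeR on 4 replicates with the block, with adjusted p of 0.0716, 0.0550, 0.0594 and 0.735, and Ptgr1 had a log2 ratio of -0.63 in replicate 1 at 5 h. Slco2a1, the prostaglandin uptake transporter, had 3425 ± 1491 untreated and 5496 ± 1667 treated normalised counts (log2 fold change 0.72, limma adjusted p = 0.281, 0.00309 under the block), and Zadh2, a prostaglandin reductase, had 1755 ± 441 and 2624 ± 651 (0.58, limma adjusted p = 0.233, 0.00143 under the block). Abcc4, an exporter of prostaglandins, was the gene DESeq2 called, with a log2 fold change of 1.37 (limma adjusted p = 0.102), and was chosen for mention after its values were seen. In replicate 1, its log2 ratios were -0.35, 2.82, 2.62 and 2.33 at 1, 5, 12 and 24 h. The transport and inactivation genes thus had no member that was lower in a test, unlike Hpgd.

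Of 7 other prostanoid receptors, 4 were tested, with 0 called in limma, edgeR or DESeq2, 1 at an unadjusted p under 0.05 and a median of -0.36. Ptgfr, the prostaglandin F receptor gene, had -0.47 (adjusted p = 0.714), and Ptgfrn, which encodes a regulator of that receptor, had -0.25 (adjusted p = 0.708). With the block 1 was higher and 1 lower. The higher one was Ptgir, the prostacyclin receptor gene, chosen for mention after its values were seen, with a log2 fold change of 3.15 (SE 1.20, limma adjusted p = 0.186, 0.000434 under the block). It had 6.60, 119.7 and 5.95 normalised counts in untreated replicates 2, 3 and 4 and 101.8, 459.1 and 92.6 in the treated ones. The groups overlapped. With edgeR on 4 replicates and the block, Ptgir was called higher (2.88, adjusted p = 0.0144), where 2.49% of all genes were higher. Its log2 ratios in replicate 1 were 1.93, 2.52, 1.63 and 1.29 at 1, 5, 12 and 24 h. Tbxa2r, the thromboxane receptor gene, was the one lower with the block in limma, and had an adjusted p of 0.0631 in edgeR on 4 replicates with the block.

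Of 11 genes of the lipoxygenase branch, which uses the same arachidonic acid, 5 were tested, with 0 called in limma, edgeR or DESeq2, 1 at an unadjusted p under 0.05 and a median of -0.06. Lta4h, the leukotriene A4 hydrolase gene, had 0.02 (adjusted p = 0.945). Alox12, a 12-lipoxygenase gene, had 127 ± 54.6 untreated and 42.4 ± 32.5 treated normalised counts (SD, n = 3 per group) with overlap, and a log2 fold change of -1.81 (limma adjusted p = 0.189, 0.00181 under the block). The block called 0 genes higher and 2 lower, Alox12 and Cysltr1, a cysteinyl leukotriene receptor gene. With edgeR on 4 replicates and the block, Alox12 was called lower (-1.85, adjusted p = 0.0210), where 1.29% of all genes were lower. Cysltr1 had an adjusted p of 0.183 in that fit.

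Markers of other cells were read beside these results, since fewer cells of a type and less RNA per cell cannot be told apart in bulk RNA. The summed level of 9 macrophage and leukocyte markers ranged from 239 to 1563 normalised counts in untreated and from 518 to 1877 in treated libraries of replicates 2 to 4. The leukocyte gene Ptprc had at most 11.9. In replicate 1 the summed level of the 9 markers ranged from 1245 to 2160 untreated and from 1083 to 2260 treated. One of the 7 tested, Cd14, was higher with the block, with 151.8, 73.8 and 174.2 normalised counts in untreated replicates 2, 3 and 4 and 564.9, 306.6 and 640.4 in the treated ones. Its groups did not overlap, and its log2 fold change was 1.93 (SE 0.41, limma adjusted p = 0.0740, 3.17e-05 under the block). DESeq2 called Cd14 too, and edgeR on 4 replicates with the block gave an adjusted p of 0.00743. Its log2 ratios in replicate 1 were 2.27, 1.28, 2.49 and 2.99 at 1, 5, 12 and 24 h. None of the other markers tested was called with the block. Emr1, Cd68, Csf1r, Lyz2, Tyrobp and Fcer1g had log2 fold changes of -0.03, 0.45, -0.38, -0.03, 0.23 and 1.21. Their log2 ratios in replicate 1 at 5 h were -1.96, 1.08, -0.91, -2.29, -2.81 and 0.02. At 24 h they were -2.75, -0.84, -0.75, -1.71, -1.02 and -1.67. The part of these markers in the rises of Ptgs2 and Ptges was not tested. The 6 mast cell markers summed to at most 4.18 in replicates 2 to 4, and in replicate 1 to 40.6 to 161 untreated and 21.6 to 216 treated. The 6 endothelial markers summed to 12.7 to 250.6 in replicates 2 to 4, of which Tek was 1 that was lower with the block. The 7 keratinocyte markers summed to 155 to 313 in untreated and 90.2 to 150 in treated libraries, with Trp63 and Dsp lower under the block and in DESeq2. Of the 5 adipocyte markers, Fabp4 alone was tested, at 259 to 1163 untreated and 338 to 2067 treated, and it was higher with the block. The 9 fibroblast markers summed to 447877 to 626065 untreated and 350882 to 453651 treated. Of them 0 were called in limma or edgeR, 2 were lower in DESeq2, 2 had an unadjusted p under 0.05 and 6 were lower with the block. Of all genes tested, 17.9% were higher and 19.3% lower with the block. In DESeq2 6.57% were higher and 4.42% lower, and 23.1% had an unadjusted p under 0.05 in limma.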

How the data were processed

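The libraries were stranded and poly(A) selected, with single-end reads. Per the labels and the study's methods, the authors used FastQC 0.11.5, TopHat2 2.0.13, SAMtools 0.1.19.24, HTSeq 0.5.3p3 and DESeq on mm10. Neither the gene annotation used for counting nor its strand option was given in the sources used here. The deposited signal consists of normalised counts, that is, read counts that the authors divided by a size factor for each library. They came in 2 tables (8 libraries of replicate 1, and 6 libraries of replicates 2 to 4), so normalised levels were not compared across tables. Multiplied by the size factors, 100% of values were whole reads within 0.1.

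For replicates 2 to 4, limma 3.58.1 (R 4.3.3, lmFit, eBayes with trend, two-sided, no block) was fitted to log2(normalised count + 1) of the 13096 genes whose mean reached 10. A gene was called at a Benjamini-Hochberg adjusted p under 0.05 over all of them. Such fold changes understate the change of low genes. Across genes, the deviation of a library from its group mean correlated with that of the library of its own number in the other group (r = 0.65, 0.76 and 0.70) and not with the others (r from -0.59 to 0.12). The numbers thus paired the libraries, and what a number stands for is not in the labels. The main limma fit and the main permutation tests of ratios did not use this pairing. A limma fit with the number as a block is given where it changed a call and for some other genes. Whole reads were fitted with edgeR 4.0.16 (quasi-likelihood) and DESeq2 1.42.0. Single libraries of replicate 1 were not tested, and their ratios have exact 95% intervals conditional on the summed reads. Ratios within libraries were compared by exact permutation (SciPy 1.17.1). Lengths and positions came from GENCODE M21 (GRCm38, which is mm10) for 39393 genes, and promoters from RefSeq (GRCm38.p6), which had entries for 8 of the 10 members and not for Ptgis and Ptger1. The fits were tested on simulated data. Other alternatives were pseudocounts of 0.1 and 10, other filters, no trend, upper quartile rescaling, a length correction and leaving out each library.

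The members, the lists and the tests were chosen with earlier results of these data known. All members were named, and from each pathway list the called genes and the 2 tested genes with the highest mean. For each called member the 5 genes most like it over replicate 1 were named. Genes named outside this rule (Mgll, Ptgds, Abcc4, Ptgr1, Ptgir, Tbxa2r, Cysltr1, Gm9687, Tpr, Prg4, Hmcn1 and single marker genes) were chosen after their values were seen.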

Additional observations from a re-analysis of the deposited data

Results flagged for a closer look

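Each member's reads were scaled to the library total (RPM) for the 4 libraries of each group at 5 h. Of 20 groups, 4 had a library far from the other 3, where chance gives about 1 in 20 for independent groups of like libraries. That rate does not strictly apply, because members share libraries and replicate 1 belongs to a different table from replicates 2 to 4. In 3 of these 4 groups it was Untreated 5h replicate 1, the library with the highest share of ribosomal protein reads. The part of the table in this was not tested. It had 173.1 RPM of Ptges against 75.4 to 86.7 in the others, 42.19 of Ptges2 against 20.2 to 23.1, and 109.9 of Pla2g4a against 158.9 to 167.3. In the fourth, AMG-treated 5h replicate 2 had 1.916 RPM of Hpgd against 0.0913 to 0.230 in the other treated libraries, and its untreated counterpart was the highest untreated library for Hpgd too.

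In replicate 1, 6 members had counting intervals on opposite sides of 0 at different times. With 1 library per group and time, these differences between times were not tested. The log2 ratio of treated to untreated Ptgs1 was -0.3255 at 1 h and 1.175, 1.891 and 2.434 at 5, 12 and 24 h. That of Hpgd was 0.8107 at 1 h and -6.535, -4.138 and -4.588 at 5, 12 and 24 h. Ptges2 had -0.8599 at 5 h between 0.5277 at 1 h and 0.3373 at 24 h, and Ptgis had 0.3632, -0.4104, 0.27 and 1.105 at the 4 times. Ptger1 had -1.224, 0.4986, -1.025 and -1.474, and Ptger4 had 0.8786 at 5 h and -0.6284 at 24 h. For Ptges2, Ptgis, Ptger1 and Ptger4, 5 h was the time with the other sign, and the untreated library at 5 h is the one that stood apart. With the length correction Ptger4 was above 0 at 1 h too, at 0.16. In limma on replicates 2 to 4 at 5 h, the log2 fold changes were 0.39, 0.32 and -0.16 for Ptges2, Ptgis and Ptger1, and 1.28 for Ptger4. The part of that untreated library in these signs was not tested.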

How the results depend on the processing

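The counts of genes called in replicates 2 to 4, 127 higher and 35 lower, depended on the fit. They were 2345 and 2527 with the replicate block, 2416 and 2436 in edgeR with the block, 2238 and 2004 with the block and the length correction, 326 and 169 in edgeR on 4 replicates with the block, and 861 and 579 in DESeq2, while limma without the trend gave 56 higher. Without 1 library they ranged from 1 to 1146 higher and from 0 to 1054 lower. Members higher were 5 with the block, 6 in edgeR with the block and 5 with the block and the length correction, and 0 to 2 without 1 library. Members lower were 1 in each of these block fits and in edgeR on 4 replicates with the block. Small changes reversed their sign: Ptger1 was 0.0107 in edgeR on 4 replicates with the table as batch and 0.0164 with the block, Ptgis ranged from -0.878 to 1.80 and Pla2g4a from -0.113 to 0.204 without 1 library. In replicate 1, members over 2-fold lower were 1 at 12 h with a pseudocount of 10, and under the length correction 0 at 1 h and 2 at 5 h. The cause was not tested. With the block the smallest p that an exact test of the ratios within libraries allows is above 0.05, and their adjusted p was 0.156 to 0.25. Of the values that answer a comparison, 125 alternatives kept the direction and the side of the threshold or stayed within 1.5 times, and 37 did not. Of the values of single genes, 329 did so, while 15 moved, 6 reversed, 14 came to pass the threshold and 16 no longer passed it. Depth limits Ptger2 and treated Hpgd, which had as few as 3 and 2 reads.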
